A study of Drosophila melanogaster with 54 samples.

Results

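Transcripts of 6 genes of the tricarboxylic acid cycle and its malate shuttle, kdn, Acon, Idh, Nc73EF, Mdh2 and Mdh1, were followed across 6 strains of Drosophila melanogaster and 3 rearing temperatures. They were picked by symbol, as 6 of the 13926 gene symbols in the deposited expression table, and all 6 passed the filter on low values. Each library was made from whole males that were 10 days old, and 3 libraries were deposited for each strain at 18, 25 and 29 °C, 54 in all. The control strain, w1118, is described as isogenic with the others and carries no transgene. The other 5 strains carry FLucDM-GFP, in which a mutant luciferase that misfolds easily is joined to green fluorescent protein. In the strain labelled Cyto-FLucDM-GFP 1copy (Cyto below) it is directed mainly to the cytoplasm. In NLS-FLucDM-GFP it is directed mainly to the nucleus, in a strain with 1 copy and in another with 2 copies (NLS 1 copy and NLS 2 copies). In Mito-FLucDM-GFP it is directed mainly to mitochondria, again with 1 copy or 2 copies (Mito 1 copy and Mito 2 copies). The labels name neither the promoter or driver of the transgenes nor the number of flies pooled per library.

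The tricarboxylic acid cycle runs in the mitochondrial matrix, where it oxidizes acetyl groups to carbon dioxide and loads the electron carriers that feed the respiratory chain. Insect flight muscle is among the tissues richest in these enzymes. Citrate synthase, the product of kdn (knockdown), admits acetyl groups by joining them to oxaloacetate. Acon encodes mitochondrial aconitase, an iron-sulphur enzyme that turns citrate into isocitrate. Idh encodes the isocitrate dehydrogenase that reduces NADP, which stands beside the NAD-linked enzyme of the cycle proper and supplies NADPH. Nc73EF encodes the decarboxylating subunit of the oxoglutarate dehydrogenase complex, which makes succinyl-CoA. Mdh2 encodes mitochondrial malate dehydrogenase, which regenerates oxaloacetate, and Mdh1 its cytosolic counterpart, which takes part in moving reducing equivalents between cytosol and mitochondria.

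On build BDGP6 kdn lies on chromosome X (6350629 to 6361323, plus strand), Acon on 2L (21168570 to 21173185, plus strand) and Idh on 3L (8356404 to 8360906, minus strand). Nc73EF lies on 3L (16954822 to 16968724, plus strand), Mdh2 on 3R (18226396 to 18228718, plus strand) and Mdh1 on 2L (10393774 to 10396332, minus strand). All 6 are protein-coding genes, and the values describe whole genes. Exons of Nc73EF share 294 bases with Cpr73D on the opposite strand, a gene at a mean of 9.23 TPM (the deposited unit, a share of transcripts scaled by their length), and 63 bases with Obp73a on the same strand, at 0.0291 TPM. Acon shares 12 bases with CG43345 and CG43346 on the opposite strand, at 5.90 and 20.7 TPM. The labels do not say whether counting used strand, so reads in these stretches cannot be told apart.

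The libraries had between 11995 and 12158 genes at 1 TPM or more, and 9.38% to 13.9% of the TPM fell on the 10 top genes of a library. In 54 of 54 libraries the most similar library was from the same group. The labelled sex was checked on marker genes. Transcripts of the male accessory gland genes Acp26Aa, Acp36DE and SP were at 84.6 TPM or more in every library, and the yolk genes Yp1, Yp2 and Yp3 at 18.5 TPM or less. Summed over the yolk genes, the Cyto libraries at 29 °C stood apart, at 19.5 to 50.4 TPM. Libraries of all other groups were at 12.3 TPM or less. The cause was not tested. The read depth behind the values is unknown.

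The 6 genes were abundant in every group. Acon was the most abundant of the 6 and kdn the least abundant in 54 of 54 libraries, while the order of the other 4 genes varied, with Idh above Nc73EF in 43 of 54 libraries and Mdh1 above Mdh2 in 23 of 54. Over the 54 libraries Acon ranged from 573 to 1203 TPM with a median of 931 TPM, and kdn from 172 to 439.7 TPM with a median of 267 TPM. Between them lay Idh with a median of 531 TPM, Mdh2 with 497 TPM, Mdh1 with 476 TPM and Nc73EF with 470.0 TPM. Each had a higher mean than 95.9% (kdn) to 98.8% (Acon) of the genes in the table. Group means spread most for kdn, whose highest group mean was 2.26 times its lowest, and least for Mdh2, at 1.43 times. The ratio was 1.71 for Idh, 1.73 for Acon, 1.74 for Mdh1 and 1.78 for Nc73EF.

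**Figure D1:**
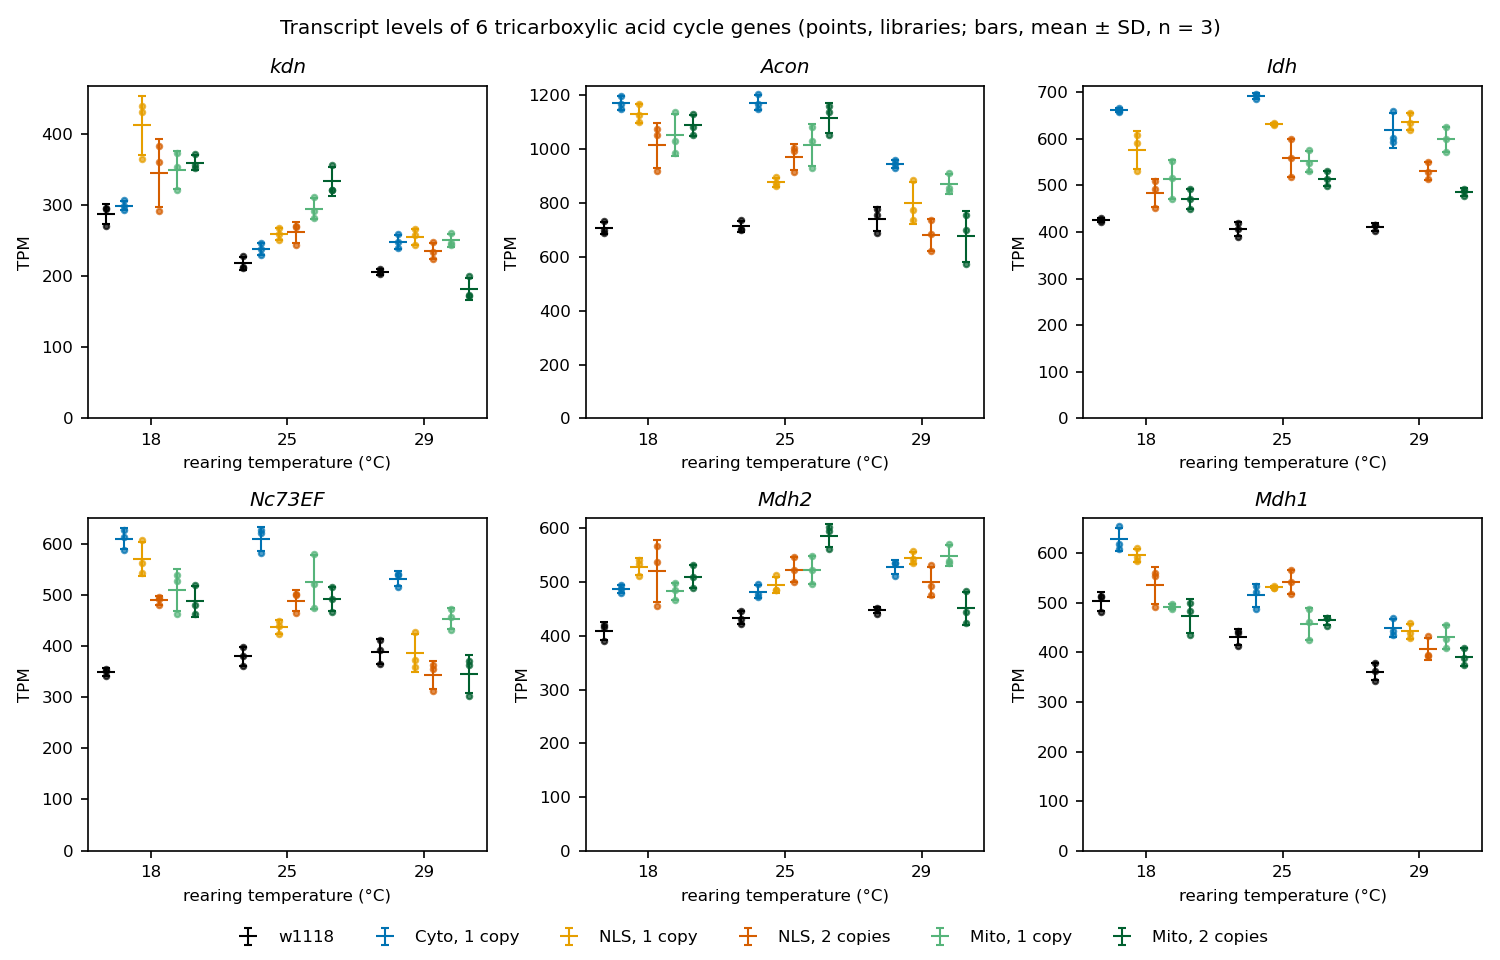
Transcript level in TPM (y axis, from 0) of the 6 genes at 18, 25 and 29 °C (x axis). Points are single libraries and bars the mean ± SD of the 3 libraries of a group, coloured by strain. The control strain w1118 (black) lies at the bottom for Idh at all 3 temperatures, while for Acon, Nc73EF and kdn the libraries of Mito 2 copies fall to or below it at 29 °C.

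The comparison with w1118 sets each strain that carries the misfolding-prone protein against a strain without a transgene. Each construct and copy number is present as a single strain, and no strain carries a transgene without the misfolding-prone protein. Effects of misfolding, of carrying a transgene and of other differences between strains therefore cannot be told apart. The comparisons of copies and of compartments have the same limit. Averaged over the 3 temperatures, 9 libraries against 9, all 6 genes were higher in Cyto, NLS 1 copy, NLS 2 copies and Mito 1 copy, and 5 of 6 in Mito 2 copies, where Mdh1 did not pass (log2 0.044, adjusted p = 0.24). None was lower. The median log2 difference of the 6 genes was 0.45 in Cyto, 0.33 in NLS 1 copy, 0.25 in NLS 2 copies, 0.37 in Mito 1 copy and 0.25 in Mito 2 copies. Over all 12555 genes tested the medians were -0.011, -0.020, -0.046, -0.029 and -0.054 in the same order. Of all genes tested, 31.1% were higher in Cyto, 30.5% in NLS 1 copy, 26.1% in NLS 2 copies, 26.6% in Mito 1 copy and 19.6% in Mito 2 copies. Tests were limma's moderated test on log2(TPM + 1), with p-values adjusted by Benjamini-Hochberg over all genes tested and a threshold of 0.05. "Higher" and "lower" are used here of what passed it. The 5 comparisons share the w1118 libraries, so they are not independent of each other. In RNA of whole flies, fewer cells of a type and less RNA per cell cannot be told apart. The all-gene shares depend on scaling: of the genes called, 35.0% to 46.9% were higher in the 5 comparisons as deposited, 48.2% to 52.5% with quantile normalization and 49.3% to 53.0% with median-ratio size factors.

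At single temperatures, 3 libraries against 3, the 6 genes gave 90 differences from w1118, of which 74 were higher, 2 lower and 14 did not pass. At 18 °C 26 of 30 were higher and none lower. In Cyto 5 genes were higher at 18 °C (background 17.1% of all genes tested), in NLS 1 copy 6 (19.9%), in NLS 2 copies 5 (16.5%), in Mito 1 copy 5 (13.6%) and in Mito 2 copies 5 (13.3%). The exceptions were kdn in Cyto and Mdh1 in NLS 2 copies and both Mito strains. At 25 °C 27 of 30 were higher and none lower, with 5 genes in Cyto (22.3%), 6 in NLS 1 copy (18.9%), 6 in NLS 2 copies (18.4%), 5 in Mito 1 copy (20.3%) and 5 in Mito 2 copies (13.9%). The exceptions were again kdn in Cyto and Mdh1 in both Mito strains. Over the 15 comparisons at single temperatures, 34.9% to 56.9% of all genes called were higher as deposited, 47.7% to 53.1% with quantile normalization and 45.9% to 54% with median-ratio size factors.

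At 29 °C the calls against w1118 differed between the transgene strains, which were not tested against each other at single temperatures. All 6 genes were higher in Cyto (background 31.1%) and in Mito 1 copy (22.8%), and 4 in NLS 1 copy (25.5%), where Acon and Nc73EF did not pass. In NLS 2 copies 4 genes were higher (21.2%) and Nc73EF was lower (31.4%). Mito 2 copies had Idh higher (15%), kdn lower (19.0%) and the other genes not passing. The counts in Mito 1 copy and in both strains with 2 copies depend on single libraries. In Mito 1 copy 4 genes were called in place of 6 without replicate 2 of w1118 at 29 °C. Without replicate 1 of NLS 2 copies or of w1118 at 29 °C, 2 genes were called in NLS 2 copies in place of 5. For Mito 2 copies 1 gene was called in place of 2 without replicate 1 of Mito 2 copies, or without replicate 1 or 3 of w1118, and 4 genes without replicate 3 of Mito 2 copies.

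**Figure D2:**
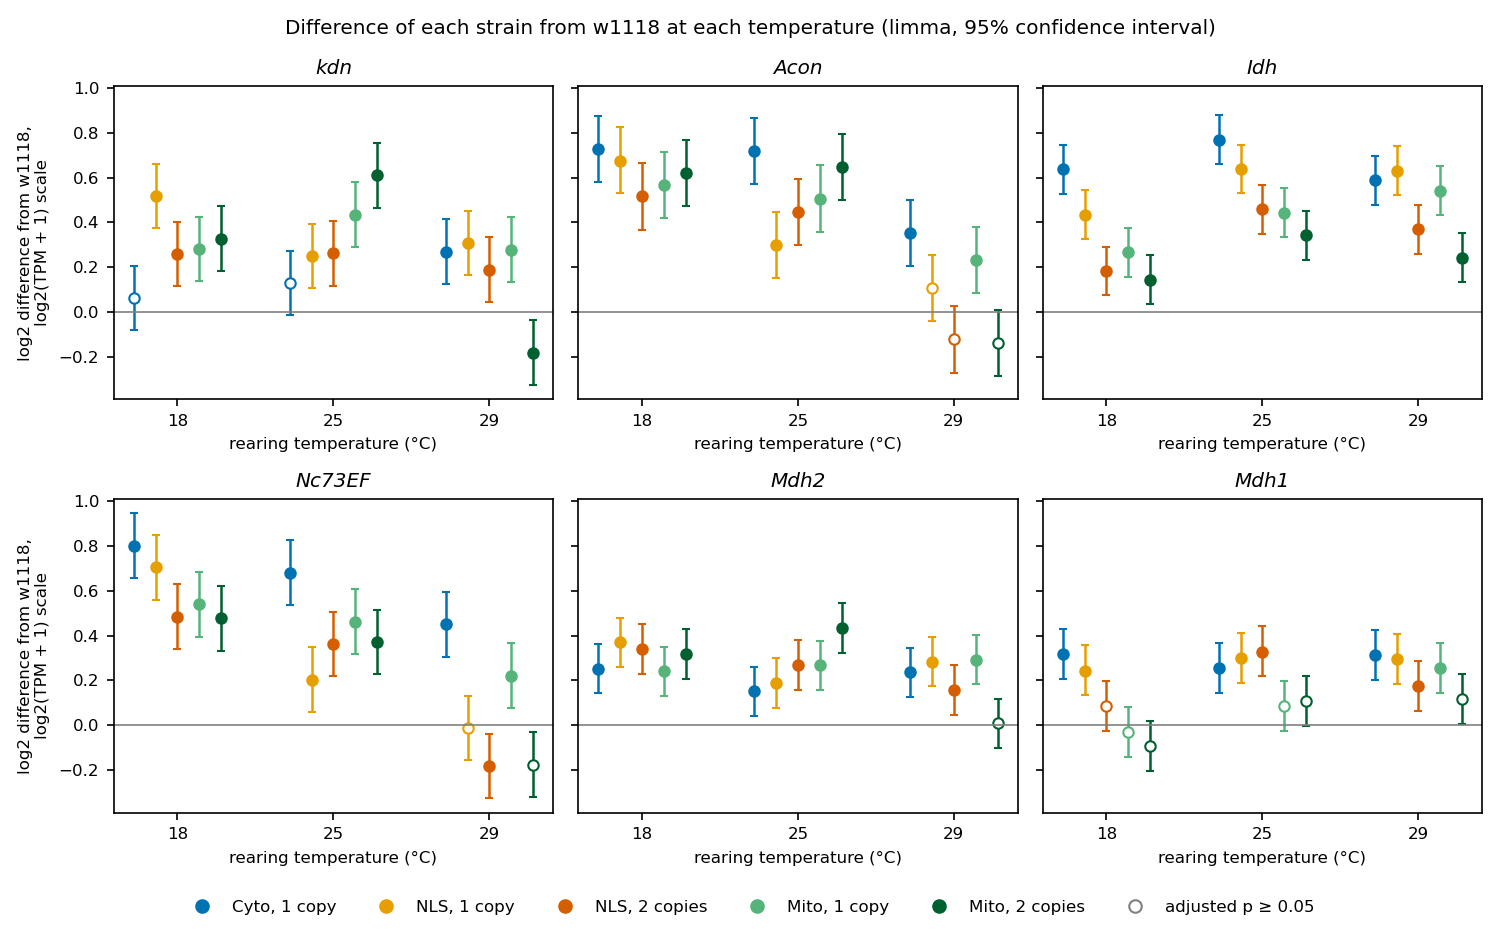
Log2 difference of each transgene strain from w1118 on the log2(TPM + 1) scale (y axis) at 18, 25 and 29 °C (x axis), with 95% confidence intervals from limma. Filled points passed an adjusted p of 0.05 and open points did not. Idh is filled and above 0 in 15 of 15 comparisons, while Acon and Nc73EF lie lower at 29 °C than at 18 °C in all 5 strains and are open or below 0 there in NLS 1 copy and the 2-copy strains.

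Citrate synthase, the entry to the cycle, was higher in all 5 transgene strains on average, with a reversal in Mito 2 copies at 29 °C. In w1118 kdn stood at 270.5, 296 and 294 TPM at 18 °C, 228, 212 and 213 TPM at 25 °C and 206, 202 and 210.0 TPM at 29 °C. In NLS 1 copy it stood at 431, 365 and 439.7 TPM at 18 °C and 266, 257 and 244 TPM at 29 °C. The NLS 1 copy libraries lay above every w1118 library of the same temperature, and its 18 °C group was the highest of the 18 groups. In Cyto kdn stood at 299, 293 and 306 TPM at 18 °C, against which w1118 libraries overlapped (log2 0.062, adjusted p = 0.505). In Mito 2 copies it stood at 352, 356 and 371 TPM at 18 °C, 322, 321 and 356 TPM at 25 °C and 172, 174 and 200.4 TPM at 29 °C. Mito 2 copies therefore held more kdn than any w1118 library at 18 and 25 °C and less than any of them at 29 °C, the lowest of the 18 groups.

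Averaged over temperatures, the log2 difference of kdn from w1118 was 0.15 in Cyto (SE 0.041, adjusted p = 0.00122) and 0.36 in NLS 1 copy (adjusted p = 3.61e-10). It was 0.24 in NLS 2 copies (adjusted p = 3.18e-06), 0.33 in Mito 1 copy (4.05e-09) and 0.25 in Mito 2 copies (1.62e-06). Of the 5 strains Cyto differed least, as it did for Mdh2 but not for the other 4 genes. At 29 °C it was lower in Mito 2 copies (log2 -0.18, adjusted p = 0.045), a call lost when any of 5 of the 6 libraries was left out, all but replicate 3 of Mito 2 copies (adjusted p up to 0.187), and with quantile normalization (adjusted p = 0.0797) or median-ratio size factors (0.0801). At 18 °C the rise in NLS 2 copies (log2 0.26) was lost without replicate 2 of that group (adjusted p = 0.058), and that at 29 °C (log2 0.19) without replicate 1 of that group (0.117) or replicate 1 or 2 of w1118 (0.053 and 0.0686).

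Aconitase was raised at 18 and 25 °C in every transgene strain and, at 29 °C, in Cyto and Mito 1 copy. In w1118 Acon stood at 689.6, 733 and 701 TPM at 18 °C and 776, 689 and 756 TPM at 29 °C. In Cyto it stood at 1168, 1198 and 1149 TPM at 18 °C and 959, 932 and 944 TPM at 29 °C. The Cyto libraries lay above every w1118 library at both temperatures, though closer at 29 °C. In NLS 1 copy Acon stood at 1169, 1102 and 1126 TPM at 18 °C and 887, 775 and 737 TPM at 29 °C, and in NLS 2 copies at 1074, 1051 and 919.5 and 737, 686 and 621 TPM. In Mito 1 copy the libraries stood at 987, 1029 and 1138 TPM at 18 °C and 855, 843 and 913 TPM at 29 °C, and in Mito 2 copies at 1083, 1052 and 1129 and 573, 699 and 757 TPM. At 18 °C none of these groups overlapped with w1118, and at 29 °C both NLS strains and Mito 2 copies did. At 25 °C group means (± SD, n = 3) ran from 713 ± 19.8 TPM in w1118 and 877 ± 17.5 TPM in NLS 1 copy up to 1116 ± 55.4 TPM for Mito 2 copies and 1173 ± 27.3 TPM in Cyto.

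When the 18 group means of Acon were put in order, neighbours overlapped in all but 1 of 17 steps. The step lay between Cyto at 29 °C and NLS 1 copy at 25 °C. Above it were the transgene strains at 18 and 25 °C, other than NLS 1 copy at 25 °C, and Cyto at 29 °C. Averaged over temperatures Acon differed from w1118 by log2 0.60 in Cyto (SE 0.042, adjusted p = 4.41e-16), 0.44 in Mito 1 copy (7.17e-12), 0.38 in Mito 2 copies (4.23e-10), 0.36 in NLS 1 copy (5.62e-10) and 0.28 in NLS 2 copies (2.05e-07). At 18 °C the differences ran from 0.52 in NLS 2 copies to 0.73 in Cyto. At 29 °C they were 0.35 in Cyto (adjusted p = 6.74e-05), 0.23 in Mito 1 copy (0.00644), 0.11 in NLS 1 copy (0.208), -0.12 in NLS 2 copies (0.16) and -0.14 in Mito 2 copies (0.143). Without replicate 2 of w1118 at 29 °C the Mito 1 copy call was lost (adjusted p = 0.0565), and without replicate 3 of Mito 2 copies that strain was lower (log2 -0.22, adjusted p = 0.0232). With median-ratio size factors NLS 1 copy was higher (log2 0.16, adjusted p = 0.0466).

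The oxoglutarate dehydrogenase subunit followed aconitase closely. In w1118 Nc73EF stood at 341, 355 and 352 TPM at 18 °C and 411, 364 and 391 TPM at 29 °C, and in Cyto at 614, 627 and 587 and 540.4, 515 and 539 TPM. In NLS 1 copy it stood at 608, 542 and 561 TPM at 18 °C and 428, 372 and 359 TPM at 29 °C, and in NLS 2 copies at 496, 492 and 479.6 and 363, 354 and 312 TPM. In Mito 1 copy it stood at 527, 463 and 538 and 457, 431 and 473 TPM, and in Mito 2 copies at 479.7, 462 and 519.5 and 303, 362 and 370.5 TPM. At 18 °C every transgene library lay above every w1118 library, and at 29 °C this held for Cyto and Mito 1 copy, while every NLS 2 copies library lay below w1118. At 25 °C group means ran from 379.8 ± 18.0 TPM in w1118 and 437 ± 13.2 TPM in NLS 1 copy up to 525 ± 53.5 TPM for Mito 1 copy and 609 ± 23.6 TPM in Cyto (SD, n = 3).

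Averaged over temperatures Nc73EF was higher by log2 0.64 in Cyto (SE 0.041, adjusted p = 1.97e-17), 0.41 in Mito 1 copy (2.29e-11), 0.30 in NLS 1 copy (2.74e-08), 0.22 in Mito 2 copies (1.28e-05) and 0.22 in NLS 2 copies (9.54e-06). At 18 °C the Cyto difference reached 0.80 (95% interval 0.66 to 0.95, adjusted p = 1.92e-12), the largest of the 90 single-temperature differences. At 29 °C Nc73EF was lower in NLS 2 copies (log2 -0.18, adjusted p = 0.0297). That call was lost without replicate 3 of NLS 2 copies (adjusted p = 0.221) or without replicate 1 or 3 of w1118 (0.146 and 0.0667), and with quantile normalization (0.134) or median-ratio size factors (0.0832). At the same temperature Nc73EF did not pass in Mito 2 copies (log2 -0.18, adjusted p = 0.0516). It passed without replicate 2 or 3 of that group (0.0367 and 0.0222) or replicate 2 of w1118 (0.0282), with quantile normalization (0.0255) and with replicate number as a block (0.042). The rise in Mito 1 copy at 29 °C (log2 0.22) was lost without replicate 2 of w1118 (0.062), and that in NLS 1 copy at 25 °C (log2 0.20) without replicate 3 of either group (0.0614 and 0.0911).

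The NADP-linked isocitrate dehydrogenase was higher than in w1118 in 15 of 15 comparisons at single temperatures. Over all temperatures the lowest, median and highest of the 9 libraries were 389.9, 415 and 429 TPM in w1118, 592, 660.4 and 697 TPM in Cyto and 530.3, 629 and 655 TPM in NLS 1 copy. They were 451, 517 and 599.8 TPM in NLS 2 copies, 470.0, 553 and 625 TPM in Mito 1 copy and 448, 492 and 531 TPM in Mito 2 copies. No library of a transgene strain reached down to the highest w1118 library. In w1118 Idh stood at 422, 425 and 429 TPM at 18 °C, 407, 419.5 and 389.9 TPM at 25 °C and 401, 415 and 415 TPM at 29 °C, and in Cyto at 667, 660.4 and 657, then 684, 693 and 697, then 660.1, 592 and 601 TPM. In Mito 2 copies, the strain nearest to w1118, it stood at 448, 493 and 471 TPM at 18 °C, 513, 499 and 531 TPM at 25 °C and 477, 488 and 492 TPM at 29 °C. In the order of the 18 groups the 3 w1118 groups came last.

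Averaged over temperatures the log2 difference of Idh from w1118 was 0.66 in Cyto (SE 0.031, adjusted p = 4.48e-22), 0.57 in NLS 1 copy (1.17e-19), 0.42 in Mito 1 copy (3.22e-15), 0.34 in NLS 2 copies (1.5e-12) and 0.24 in Mito 2 copies (9.72e-09). The Cyto groups at 25 and 18 °C had the highest means of the 18 groups, each without overlap with the next lower group. The smallest difference, in Mito 2 copies at 18 °C (log2 0.14, adjusted p = 0.0308), did not pass when any of 5 libraries was left out, all but replicate 1 of Mito 2 copies (adjusted p up to 0.163), nor with quantile normalization (0.0573).

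Mitochondrial malate dehydrogenase was higher in all 5 strains, by 0.21 to 0.28 on the log2 scale. Over all temperatures the lowest, median and highest of the 9 libraries of Mdh2 were 390.1, 432 and 452 TPM in w1118, 473, 494 and 536 TPM in Cyto and 486, 533 and 557 TPM in NLS 1 copy. They were 455, 522 and 567 TPM in NLS 2 copies, 467, 523 and 571 TPM in Mito 1 copy and 425, 509 and 603 TPM in Mito 2 copies. Mito 2 copies overlapped with w1118 through its 29 °C libraries (425, 445 and 484 TPM, against 441, 452 and 451 TPM), and no library of the other 4 strains overlapped. Averaged over temperatures the log2 difference from w1118 ran from 0.21 in Cyto (SE 0.032, adjusted p = 1.39e-07) to 0.28 in NLS 1 copy (adjusted p = 1.99e-10). At single temperatures Mdh2 was higher in 14 of 15 comparisons, from 0.15 in Cyto at 25 °C to 0.43 in Mito 2 copies at 25 °C. The exception was Mito 2 copies at 29 °C (log2 0.009, adjusted p = 0.92). The smallest of the 14 was lost without replicate 1 of Cyto or replicate 3 of w1118 at 25 °C (adjusted p = 0.0884 and 0.0921), and the call in NLS 2 copies at 29 °C (log2 0.16) without replicate 1 of that group (0.122).

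Cytosolic malate dehydrogenase was higher than in w1118 in the Cyto and NLS strains and, by less, in Mito 1 copy. Over all temperatures the lowest, median and highest of the 9 libraries of Mdh1 were 343, 439 and 514 TPM in w1118, 435, 522 and 655 TPM in Cyto and 430.0, 531 and 611 TPM in NLS 1 copy. They were 393, 519 and 566 TPM in NLS 2 copies, 409, 462 and 497 TPM in Mito 1 copy and 374, 454 and 500.5 TPM in Mito 2 copies. The ranges of all strains overlapped when the 3 temperatures were pooled. At 18 °C w1118 stood at 482, 513 and 514 TPM, Cyto at 619.5, 655 and 609 TPM, NLS 1 copy at 611, 584 and 593 TPM and Mito 1 copy at 493, 497 and 488 TPM. There Cyto and NLS 1 copy were above w1118 without overlap, and Mito 1 copy lay within its range. At 29 °C w1118 stood at 343, 378 and 362 TPM, the lowest of the 18 group means, and Mito 1 copy at 456, 409 and 427 TPM, above it without overlap.

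Averaged over temperatures the log2 difference of Mdh1 from w1118 was 0.30 in Cyto (SE 0.032, adjusted p = 9.46e-11), 0.28 in NLS 1 copy (3.03e-10), 0.20 in NLS 2 copies (8.42e-07) and 0.10 in Mito 1 copy (0.00496). The difference in Mito 2 copies had a 95% interval of -0.02 to 0.11, and it passed with median-ratio size factors (log2 0.097, adjusted p = 0.0159). In NLS 2 copies at 18 °C it did not pass (log2 0.088, adjusted p = 0.195) but did without replicate 3 of that group (log2 0.15, adjusted p = 0.0425) or with median-ratio size factors (log2 0.17, adjusted p = 0.018). With the same factors Mito 2 copies passed at 25 °C (log2 0.17, adjusted p = 0.0231, against 0.11 and 0.121 as deposited). The rise in NLS 2 copies at 29 °C (log2 0.17, adjusted p = 0.00761) was lost without replicate 1 of that group or of w1118 (0.0773 and 0.0617).

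Rearing temperature moved the genes differently. From 18 to 29 °C, 3 libraries against 3 in each strain, kdn and Mdh1 fell in 6 of 6 strains and Acon in the 5 transgene strains, while Idh rose in 3 strains and fell in none. In w1118 Mdh2 rose (background 28.9% higher) and kdn and Mdh1 fell (27.1% lower). In Cyto 4 of 6 genes fell and none rose (19.5% lower). In NLS 1 copy 4 fell and 1 rose (27.8% lower, 24.7% higher), and likewise in NLS 2 copies (24.2% and 29.8%). In Mito 1 copy 3 fell and 2 rose (22.9% and 26.0%). In Mito 2 copies 5 fell and none rose (21.9% lower). Of all genes called, 47.1% to 60.8% rose over the 6 strains as deposited, 47.4% to 51.6% with quantile normalization and 47.2% to 55.2% with median-ratio size factors.

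Among these, kdn fell in w1118 by 0.47 on the log2 scale (SE 0.071, adjusted p = 3.65e-07) and by 0.98 in Mito 2 copies (3.8e-15), with -0.27 in Cyto, -0.68 in NLS 1 copy, -0.54 in NLS 2 copies and -0.48 in Mito 1 copy. Mdh1 fell by 0.48 in w1118 (adjusted p = 1.22e-09) and by 0.48 in Cyto (1.38e-09), and the smallest fall was -0.20 in Mito 1 copy (0.00318). Both genes thus had fewer transcripts at 29 °C with or without the transgene. Mdh2 went up in w1118 (log2 0.13, adjusted p = 0.0381), a call lost when replicate 1 at 18 °C (adjusted p = 0.177) or any of the 3 libraries at 29 °C (0.0507, 0.0876 and 0.0829) was left out. It rose in Mito 1 copy (log2 0.18, 0.00499) and fell in Mito 2 copies (log2 -0.18, 0.00581). The Mito 2 copies call was lost without replicate 1 at 29 °C (adjusted p = 0.0585) and with quantile normalization (0.11). In NLS 2 copies Mdh2 did not pass (log2 -0.053) but fell without replicate 3 at 18 °C (-0.15, 0.0193). With quantile normalization it rose in Cyto (0.17, 0.0105) and NLS 1 copy (0.15, 0.0238).

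Acon and Nc73EF separated the transgene strains from w1118. In w1118 neither passed, Acon at log2 0.063 (adjusted p = 0.482) and Nc73EF at 0.15 (0.0644). Nc73EF passed upward there without replicate 2 at 29 °C (log2 0.20, adjusted p = 0.0321) and with median-ratio size factors (0.0481). Acon fell by 0.31 in Cyto (adjusted p = 0.00051), by 0.51 in NLS 1 copy (2.04e-07), by 0.58 in NLS 2 copies (1.13e-08), by 0.27 in Mito 1 copy (0.00204) and by 0.69 in Mito 2 copies (1.38e-10). Nc73EF fell by 0.56 in NLS 1 copy, 0.51 in NLS 2 copies and 0.50 in Mito 2 copies (adjusted p = 1.18e-08, 8.1e-08 and 1.6e-07). Its fall in Cyto (log2 -0.20, adjusted p = 0.0203) was lost without replicate 1 or 2 at 18 °C or replicate 2 at 29 °C (adjusted p up to 0.0729) and was -0.098 with quantile normalization (0.265). In Mito 1 copy it did not pass (log2 -0.16, adjusted p = 0.0535) but did without replicate 2 at 18 °C or replicate 3 at 29 °C (0.0135 and 0.0447), with median-ratio size factors (0.037) and with replicate number as a block (0.0441).

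Idh stood against this pattern. It rose from 18 to 29 °C in NLS 1 copy (log2 0.14, adjusted p = 0.0232), NLS 2 copies (0.14, 0.0319) and Mito 1 copy (0.22, 0.000606). It did not pass in w1118 (-0.051), Cyto (-0.099) or Mito 2 copies (0.046). In Cyto it passed as a fall with median-ratio size factors (log2 -0.17, adjusted p = 0.0107) or without replicate 1 at 29 °C (-0.15, 0.0352). A rise in Mito 2 copies passed with quantile normalization (0.16, 0.0181). The NLS 1 copy call was lost without replicate 3 at 18 °C or replicate 1 at 29 °C (adjusted p = 0.224 and 0.0935). The NLS 2 copies call was lost without replicate 3 at 18 °C, or without replicate 1 or 2 at 29 °C (0.227, 0.131 and 0.0588), and with median-ratio size factors (0.117).

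**Figure D3:**
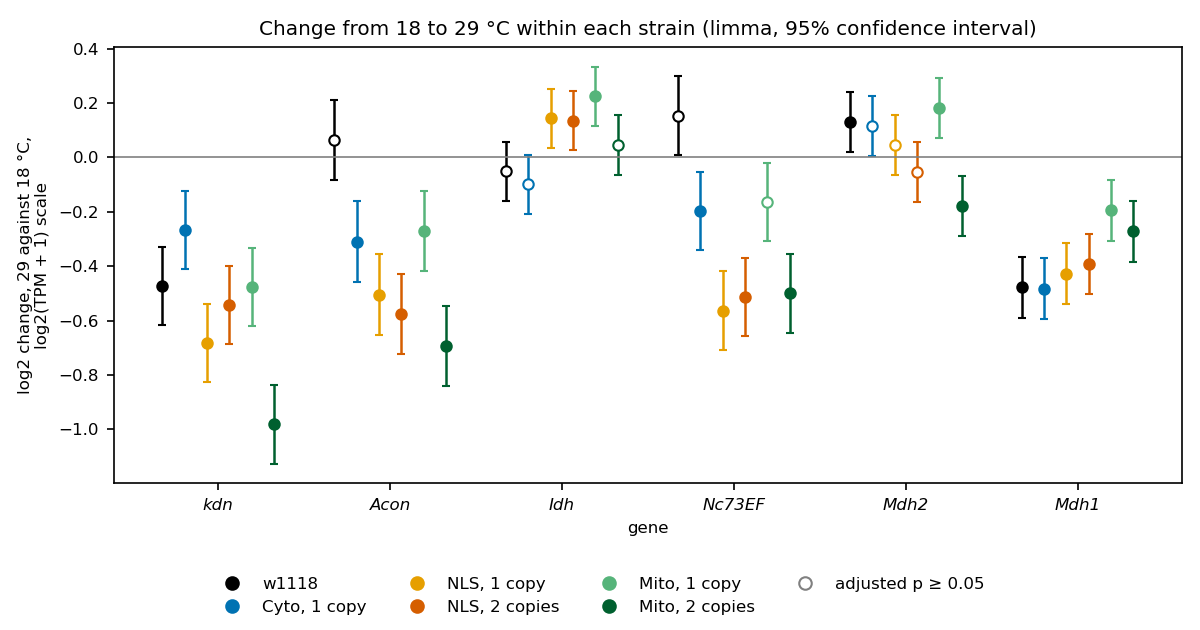
Log2 change from 18 to 29 °C within each strain on the log2(TPM + 1) scale (y axis) for the 6 genes (x axis), with 95% confidence intervals from limma. Filled points passed an adjusted p of 0.05. The w1118 points (black) lie above those of all 5 transgene strains for Acon and Nc73EF, and the lowest point is kdn in Mito 2 copies, at -0.98.

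The interaction asks whether a strain was set apart from w1118 by a different amount at 29 than at 18 °C, with 6 libraries of each strain in the contrast. For Acon it did so downward in 5 of 5 strains. The interaction was -0.37 in Cyto (SE 0.103, adjusted p = 0.00589), -0.57 in NLS 1 copy (9.61e-05), -0.64 in NLS 2 copies (1.2e-05), -0.33 in Mito 1 copy (0.0135) and -0.76 in Mito 2 copies (6.03e-07). For Nc73EF it was also downward in all 5, at -0.35 in Cyto (adjusted p = 0.00781), -0.72 in NLS 1 copy (1.47e-06), -0.67 in NLS 2 copies (3.54e-06), -0.32 in Mito 1 copy (0.0159) and -0.65 in Mito 2 copies (6.07e-06). The calls in Mito 1 copy were lost for Acon without replicate 3 of that strain at 18 °C (log2 -0.28, adjusted p = 0.0525) and for Nc73EF without replicate 1 of w1118 at 29 °C (log2 -0.28, adjusted p = 0.0569). The Cyto call for Nc73EF was lost with quantile normalization (log2 -0.25, adjusted p = 0.0609).

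The other 4 genes had fewer interactions. In Mito 1 copy Idh (log2 0.28, adjusted p = 0.00601) and Mdh1 (0.28, 0.00597) had upward ones. In Mito 2 copies kdn (-0.51, 0.000254) and Mdh2 (-0.31, 0.00356) had downward ones. The counts were 2 downward in Cyto (background 14.4% of all genes tested), 2 in NLS 1 copy (15.5%), 2 in NLS 2 copies (9.40%), 2 downward (15%) and 2 upward (13.1%) in Mito 1 copy, and 4 downward in Mito 2 copies (6.09%). Without replicate 2 of NLS 1 copy at 18 °C the count in that strain was 4, Idh passing upward (log2 0.24, adjusted p = 0.0285) and kdn downward (log2 -0.29, adjusted p = 0.03). With scaling by quantile normalization kdn passed upward in Cyto (log2 0.39, adjusted p = 0.00433) and Idh upward in both NLS strains (0.00438 and 0.012). Idh also passed upward in NLS 2 copies without replicate 2 of that strain at 18 °C (0.0453), and Mdh2 downward without its replicate 3 at 18 °C or replicate 1 at 29 °C (0.00445 and 0.0453). Mdh1 passed upward in Mito 2 copies (log2 0.21, adjusted p = 0.0672 with all libraries) without replicate 2 of that strain at 18 °C, its replicate 1 at 29 °C or replicate 2 of w1118 at 29 °C (0.0336, 0.0463 and 0.0435). Of all genes called in an interaction, 38.7% to 60.6% were upward in the 5 strains as deposited, 46.1% to 53.3% with quantile normalization and 35.6% to 48.8% with median-ratio size factors.

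Copies of the transgene were compared within the NLS and Mito strains, 9 libraries against 9. As a mean over the 3 temperatures, no gene of the 6 was higher with 2 copies. Idh was lower with 2 copies of either form, by 0.23 on the log2 scale in NLS (SE 0.031, adjusted p = 1.55e-07) and 0.17 in Mito (2.1e-05). In NLS kdn (-0.12, 0.0221) and Mdh1 (-0.083, 0.0461) were also lower, making 3 of 6 (background 15.4% lower). In Mito Nc73EF was also lower (-0.18, 0.000424), making 2 of 6 (23.3%). Acon and Mdh2 did not pass in either, with 95% intervals of -0.17 to 0.004 and -0.15 to 0.025 for Acon and -0.089 to 0.038 and -0.077 to 0.05 for Mdh2. Copies were not tested at single temperatures, where a difference can turn with temperature. Mdh2 in Mito is an example, chosen after its values were seen. At 25 °C its libraries stood at 563 to 603 TPM with 2 copies and 496 to 549 TPM with 1 copy. At 29 °C they stood at 425 to 484 TPM with 2 copies and 536 to 571 TPM with 1 copy. In NLS the count was 1, Idh alone, without replicate 1 or 3 of NLS 1 copy at 18 °C, replicate 3 of NLS 2 copies at 18 °C, replicate 2 of NLS 2 copies at 25 °C or replicate 3 of NLS 2 copies at 29 °C, and when only the NLS libraries were fitted. The Mdh1 call was lost without any of 12 libraries, all but replicate 2 of NLS 1 copy at 18 or 29 °C and, of NLS 2 copies, replicates 1 and 2 at 18 °C, 3 at 25 °C and 1 at 29 °C. It was also lost with quantile normalization (adjusted p = 0.131), median-ratio size factors (0.0971) and replicate number as a block (0.0508). In Mito kdn did not pass (log2 -0.08, adjusted p = 0.115) but was lower without replicate 3 of Mito 2 copies at 29 °C (0.0419) and with quantile normalization (0.00945).

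Between compartments, again averaged over temperatures, the 1-copy strains ordered the genes differently. Against Cyto, NLS 1 copy had more kdn (log2 0.21, adjusted p = 0.000154, background 9.51% higher) and less Nc73EF (-0.35, 1.47e-08), Acon (-0.24, 2.76e-05) and Idh (-0.096, 0.0154, background 22.6% lower). The Idh call was lost without replicate 3 of NLS 1 copy at 18 °C (adjusted p = 0.0558) and with median-ratio size factors (0.16), with which Mdh2 passed upward (log2 0.11, adjusted p = 0.00845). Mito 1 copy against Cyto also had more kdn (0.18, 0.000969, background 9.69%) and less Idh (-0.25, 5.74e-08), Nc73EF (-0.24, 2.41e-05), Mdh1 (-0.19, 9.5e-06) and Acon (-0.16, 0.00315, background 16.8%). Cyto thus held the most Acon, Idh and Nc73EF of the 1-copy strains and the least kdn.

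Mito 1 copy against NLS 1 copy had less Mdh1 (-0.18, adjusted p = 5.25e-05) and Idh (-0.15, 0.000305, background 11.8% lower). Nc73EF was higher (0.11, 0.0396, background 19.2% higher), a call lost without any of 11 of the 18 libraries (adjusted p up to 0.117), all but replicate 1 of NLS 1 copy and replicate 2 of Mito 1 copy at each temperature and replicate 3 of NLS 1 copy at 25 °C. At 2 copies Mito against NLS again had less Mdh1 (-0.15, 0.000125) and Idh (-0.094, 0.0115, background 22.6%). Acon did not pass there (0.095, 0.0596) and did so upward without replicate 1 of NLS 2 copies at 18 or 29 °C, replicate 2 of Mito 2 copies at 25 °C or replicate 1 of Mito 2 copies at 29 °C (adjusted p from 0.0046 to 0.0387). Mdh2 passed in none of the 4 comparisons of compartments, and the 95% interval that reached farthest from 0 was 0.004 to 0.13, for NLS 1 copy against Cyto. Of all genes called, 29.6% to 61.9% were higher in the first-named strain over the 4 comparisons as deposited, 47.3% to 50.7% with quantile normalization and 47.3% to 50% with median-ratio size factors.

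The balance of the malate dehydrogenases shifted with temperature, which is given as a description with no test. At 18 °C Mdh1 was above Mdh2 in 13 of 18 libraries, at 25 °C in 10 of 18 and at 29 °C in 0 of 18. In w1118 the ratio of Mdh1 to Mdh2 was 1.23 ± 0.00482 at 18 °C, 0.994 ± 0.0194 at 25 °C and 0.806 ± 0.0292 at 29 °C (SD, n = 3). In Cyto it was 1.29 ± 0.0377, then 1.07 ± 0.0312, then 0.851 ± 0.0273. The cytosolic form thus led at 18 °C and trailed at 29 °C in both strains. The ratio in Mito 2 copies was 0.927 ± 0.0491 at 18 °C, 0.793 ± 0.0369 at 25 °C and 0.869 ± 0.0600 at 29 °C, below 1 at every temperature.

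**Figure D4:**
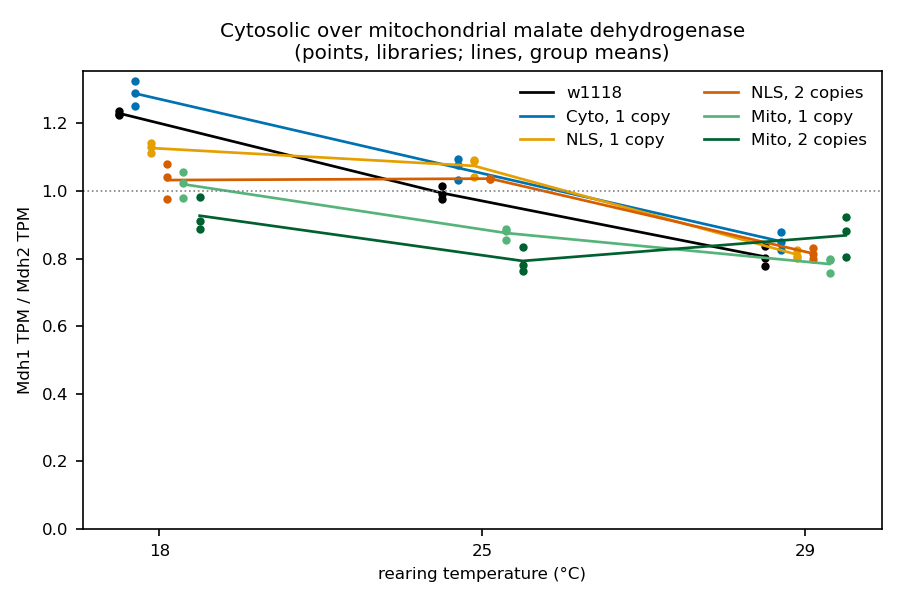
Ratio of Mdh1 to Mdh2 TPM (y axis, from 0) by rearing temperature (x axis), with points for libraries and lines through group means, coloured by strain. All 18 libraries at 29 °C lie below 1, the dotted line, and Mito 2 copies lies below 1 at all 3 temperatures.

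The rest of the cycle's enzymes is covered by 13 further genes, those of the NAD-linked isocitrate dehydrogenase, succinyl-CoA synthetase, succinate dehydrogenase and fumarase, and the other subunits of the oxoglutarate dehydrogenase complex. Averaged over temperatures they were higher than in w1118 in 12 of 13 in Cyto (median log2 0.20), 12 in NLS 1 copy (0.12), 6 in NLS 2 copies (0.061), 13 in Mito 1 copy (0.20) and 12 in Mito 2 copies (0.22), and none was lower. With median-ratio size factors the NLS 2 copies count was 11. Fumarase, encoded by l(1)G0255, was higher by 0.38 in Cyto, 0.29 in NLS 1 copy, 0.27 in NLS 2 copies, 0.33 in Mito 1 copy and 0.34 in Mito 2 copies. The succinyl-CoA synthetase genes Scsalpha and Sucb were, with fumarase, the 3 with the largest differences in NLS 1 copy (0.35 and 0.26), NLS 2 copies (0.36 and 0.23) and Mito 1 copy (0.31 and 0.46). The gene l(1)G0156, a subunit of the NAD-linked isocitrate dehydrogenase, was at 0.33 in Mito 2 copies. In Cyto the succinate dehydrogenase genes SdhA (0.28) and SdhB (0.29) followed fumarase. Acon and Idh in Cyto, at 0.60 and 0.66, thus had larger differences than any of these 13 genes in that strain. In the same strain kdn, Mdh1 and Mdh2 lay below fumarase. Scsalpha in NLS 2 copies (0.36) and Sucb in Mito 1 copy (0.46) lay above all of the 6 genes.

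**Figure D5:**
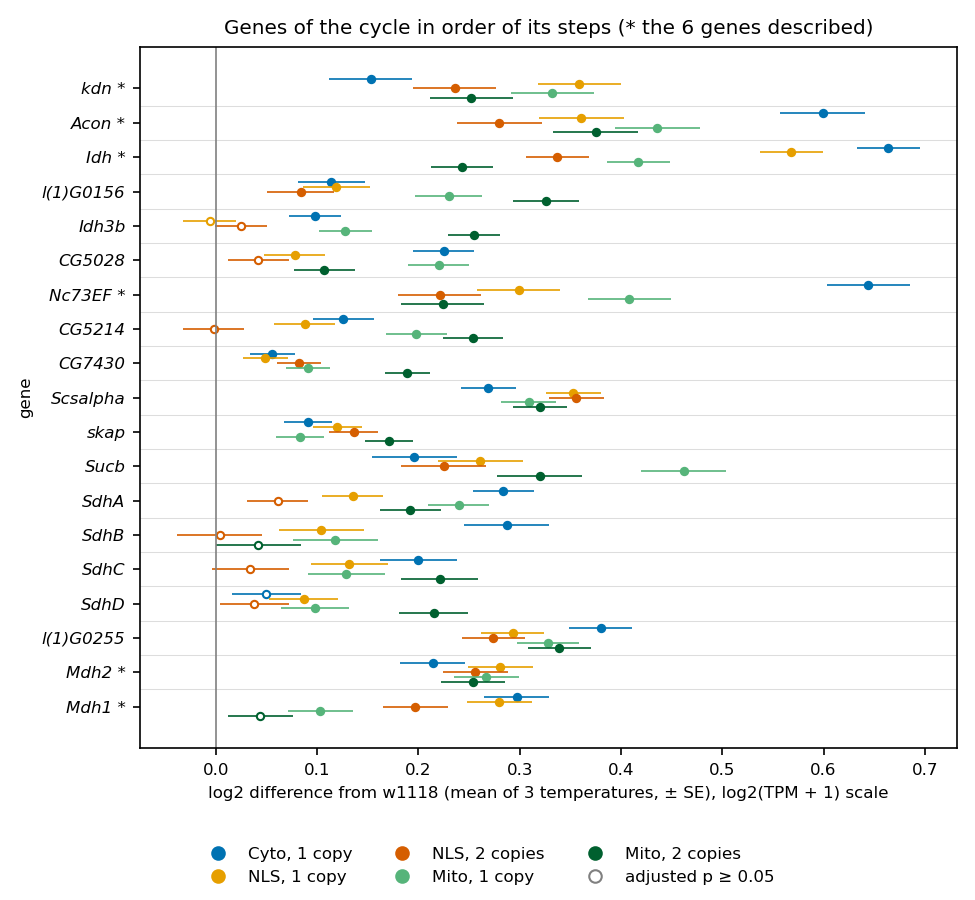
Log2 difference from w1118 averaged over the 3 temperatures (x axis, ± SE, log2(TPM + 1) scale) for 19 genes in the order of the cycle's steps (y axis), with the 6 genes described marked by an asterisk. Filled points passed an adjusted p of 0.05. Points lie right of 0 almost throughout, and the farthest right are Idh, Nc73EF and Acon in Cyto, at 0.66, 0.64 and 0.60.

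From 18 to 29 °C, 7 of these 13 genes fell in w1118, 8 in Cyto, 9 in NLS 1 copy, 9 in NLS 2 copies, 8 in Mito 1 copy and 9 in Mito 2 copies, beside the background shares of falls given above. In the same order 1, 1, 1, 1, 3 and 0 of the 13 rose, with 30.3% of all genes tested rising in Cyto and 32.3% in Mito 2 copies, and the other shares as above. The median log2 change was -0.17 in w1118 and between -0.52 and -0.33 in the transgene strains. SdhB, SdhC, SdhD and l(1)G0156 fell in all 6 strains, w1118 included, by 0.93, 0.66, 0.86 and 0.78 there, and were named after their values were seen. The interaction was downward for 5 of the 13 in Cyto, beside 14.4% of all genes tested. The downward count was 7 for NLS 1 copy (background 15.5%), 9 for NLS 2 copies (9.40%) and 10 for Mito 2 copies (6.09%). For Mito 1 copy it was 2 of the 13, about the background share (15%). None was upward in either NLS strain (9.77% and 10.5%) or Mito 2 copies (9.36%). The interaction was upward for 1 in Cyto and 1 in Mito 1 copy, less than the background shares of 17.9% and 13.1%. It was downward for SdhA in all 5 strains (log2 -0.40 in Cyto, -0.62 in NLS 1 copy, -0.49 in NLS 2 copies, -0.29 in Mito 1 copy and -0.48 in Mito 2 copies). With quantile normalization the downward counts in Cyto, NLS 1 copy and NLS 2 copies were 2, 4 and 7. The upward counts were then 2 in Mito 1 copy and 1 in each other strain. With median-ratio size factors the downward counts were 7 in Cyto and 4 in Mito 1 copy, and the upward count in Cyto was 0. Without a filter the downward count in Mito 1 copy was 3. SdhA was named after its values were seen.

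Drosophila has a second set of cycle genes, paralogs of which 14 were measured, such as CG10748 and CG10749, relatives of malate dehydrogenase, and CG14740, a relative of citrate synthase. They did not share the rise. Averaged over temperatures 13 of 14 were lower than in w1118 in Cyto (background 35.3% lower), 14 in NLS 1 copy (38.3%), 13 in NLS 2 copies (41.0%), 13 in Mito 1 copy (36.7%) and 6 in Mito 2 copies (36.3%), where CG6255 was higher (log2 0.15). The medians were log2 -0.29, -0.41, -0.37, -0.26 and -0.091. The genes CG14740, at -0.29 in Cyto, and CG10749, at -0.47 in NLS 1 copy, are examples chosen, as CG6255 was, after their values were seen. Testis markers moved with them: of 9, among them ProtA, ProtB and dj, 9 were lower in Cyto, 9 in NLS 1 copy, 8 in NLS 2 copies, 9 in Mito 1 copy and 4 in Mito 2 copies, where 1 was higher. Summed TPM of the 9 testis genes ran from 6318 to 8795 in w1118 libraries and from 4869.7 to 7677 in transgene libraries. The part of testis RNA in the paralogs' result was not tested.

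Flight muscle is rich in these enzymes, and muscle genes are given here for that reason, to be read against the background shares of the same comparisons above. Of 12 muscle genes, averaged over temperatures, 6 were higher and 2 lower than in w1118 in Cyto, 6 and 0 in NLS 1 copy, 8 and 1 in NLS 2 copies, 9 and 1 in Mito 1 copy and 9 and 0 in Mito 2 copies. The defining markers were troponin C TpnC4, at log2 0.79 to 1.07, flightin fln, at 0.038 in NLS 1 copy to 0.40 in Mito 2 copies, and the actin Act88F, at 0.040 in NLS 1 copy to 1.10 in Mito 2 copies (the NLS 1 copy values of fln and Act88F did not pass). None was at 0 in any group. At 18 °C the summed level of the 12 genes was 4329 to 4839 TPM in w1118 libraries, 4515 to 4825 in Cyto and 5717 to 6355 in Mito 2 copies. At 25 °C it was 3544 to 3900.2 TPM in w1118 and 3958 to 4522 in Cyto, and at 29 °C 3755 to 4091 and 4144 to 4579 TPM. The Cyto libraries thus lay within the w1118 range at 18 °C and above it at 25 and 29 °C. In Mito 2 copies the sums were 4476 to 4759 TPM at 25 °C and 4203 to 4543 at 29 °C, above w1118 at all 3 temperatures. NLS 1 copy lay within the w1118 range at 25 °C (3778 to 3836 TPM). At 29 °C NLS 2 copies (3911 to 4277 TPM) and Mito 1 copy (3914 to 4137 TPM) overlapped with w1118. In the other groups of these 3 strains every library lay above w1118 at the same temperature. From 18 to 29 °C, 6 of the 12 muscle genes fell in w1118, 6 in Cyto, 9 in NLS 1 copy, 11 in NLS 2 copies, 8 in Mito 1 copy and 10 in Mito 2 copies. In the same order 1, 2, 0, 0, 1 and 0 of them rose. Fat body genes, led by the lipoprotein apolpp, were higher in 4 of 5 in Cyto, 5 in both NLS strains, 3 in Mito 1 copy and 4 in Mito 2 copies, with sums of 701 to 922 TPM in w1118 libraries and 756 to 1299 in transgene libraries. The part of muscle, fat body and testis RNA in the results on the 6 genes was not tested.

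Genes with a like pattern were ranked for each of the 6 by the root-mean-square difference of their centred group means over the 18 groups, on the log2(TPM + 1) scale, among 10483 genes with a mean of at least 5 TPM. Acon and Nc73EF ranked first for each other, at 0.0824, followed by CG18324 and CG43231 for both. For kdn the closest were ATPsynC (0.109) and blw (0.119), subunits of mitochondrial ATP synthase, and the peroxiredoxin Prx5 (0.117). For Mdh2 they were Chchd3 (0.0572), the complex I subunit ND-24 (0.0700) and CG10311 (0.0721). For Mdh1 they were the carbonic anhydrase CAHbeta (0.0721), CG16974 (0.0815) and ras (0.0819), and for Idh CG3168 (0.0995), Ssadh (0.0996) and CG2680 (0.104). The groups share strains and temperatures, so these ranks describe likeness in these samples. The differences cannot be compared between the 6 genes, whose own group means spread unequally. The root-mean-square of the centred group means was 0.298 for kdn, 0.276 for Acon and 0.266 for Nc73EF. It was 0.227 for Idh, 0.201 for Mdh1 and 0.127 for Mdh2. Apart from the pair of Acon and Nc73EF, the best place of any of the 6 was that of Mdh1, 203 among the genes nearest to Acon (0.199). From the side of Mdh1, Acon was in place 2183. By the difference itself Idh and Mdh2 were the next closest pair, at 0.19.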

How the data were processed

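Per the labels, RNA was extracted from whole males with TRIzol and made into TruSeq RNA v2 libraries. The authors computed the deposited TPM, which cover 13926 symbols in 54 libraries with the same total in each. BDGP6 and dm6 are the builds in the submitters' processing notes. The labels name no aligner and no counting program, and depth is unknown, so no counting interval could be computed. Because TPM is a share of each library, a rise in some abundant genes lowers all others.

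The log2(TPM + 1) values of the 54 libraries were fitted in limma 3.58.1 (R 4.3.3) with 1 mean per strain and temperature, and differences were tested two-sided with eBayes, its trend option and 36 residual degrees of freedom. The fit covered the 12555 genes that reached 1 TPM in 3 or more libraries, and each of 37 comparisons had its own Benjamini-Hochberg adjustment, at 0.05. With 1 added, changes of low genes are understated. The method was tested on simulated data. The labels number the replicates without saying whether they were separate cultures, so p-values measure only the spread between these libraries, which may be technical. The interval of a difference is a 95% confidence interval from the same fit.

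The 6 genes and all lists were chosen with earlier results of these data known. The naming rule took all 6 genes, up to 3 of the largest rises and falls among other cycle genes and genes that feed or drain the cycle, and the 3 genes most alike in pattern to each of the 6. Alternatives were a pseudocount of 0.1, no filter, quantile normalization, median-ratio size factors, a replicate block, a fit of only the strains compared, and leaving out each library. Gene positions come from the BDGP6 annotation. Sequences were not used here.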

Additional observations from a re-analysis of the deposited data

Results flagged for a closer look

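In 14 of 30 cases the difference of a transgene strain from w1118 was itself different at 29 °C from that at 18 °C, by limma's test of the interaction (6 libraries of each strain, Benjamini-Hochberg over all genes tested). Of all genes tested, 14.4% had a downward interaction in Cyto, 15.5% in NLS 1 copy, 9.40% in NLS 2 copies, 15% in Mito 1 copy and 6.09% in Mito 2 copies, and 17.9%, 9.77%, 10.5%, 13.1% and 9.36% an upward one. For Acon the change of the log2 difference was -0.37 in Cyto, -0.57 in NLS 1 copy, -0.64 in NLS 2 copies, -0.33 in Mito 1 copy and -0.76 in Mito 2 copies. For Nc73EF it was -0.35 in Cyto, -0.72 in NLS 1 copy, -0.67 in NLS 2 copies, -0.32 in Mito 1 copy and -0.65 in Mito 2 copies. In Mito 1 copy Idh (0.28) and Mdh1 (0.28) had upward interactions, and in Mito 2 copies kdn (-0.51) and Mdh2 (-0.31) had downward ones. The 5 interactions of a gene share the w1118 libraries, in which the mean of Acon was 708 ± 22.7 TPM at 18 °C and 741 ± 45.5 TPM at 29 °C, and that of Nc73EF 349 ± 7.07 and 389 ± 23.7 TPM (SD, n = 3). Of 12 muscle genes, 0 had a downward and 4 an upward interaction in Cyto (median log2 0.19, 6 upward with quantile normalization and 2 with median-ratio size factors), where Acon and Nc73EF went downward. The downward and upward counts were 3 and 1 in NLS 1 copy, 8 and 0 in NLS 2 copies, 1 and 1 in Mito 1 copy and 4 and 1 in Mito 2 copies. Of 9 testis markers, 9 had a downward interaction in Cyto (7 with quantile normalization) and 9 in NLS 1 copy. The count was 2 in NLS 2 copies (8 with median-ratio size factors), 8 in Mito 1 copy and 0 in Mito 2 copies. No testis marker had an upward one. The part of muscle and testis RNA in the interactions of the 6 genes was not tested.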

How the results depend on the processing

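No difference of the 6 genes that passed turned its sign under any alternative run. The pseudocount of 0.1 and the missing filter changed none of the 222 gene calls. Of the 222 calls, 206 were the same with quantile normalization, 207 with median-ratio size factors and 209 with only the strains compared. The count of genes called in Mito 2 copies against w1118 at 29 °C was 1 with median-ratio size factors in place of 2. With only the strains compared it was 3 in place of 5 in NLS 2 copies at 29 °C, and 1 in place of 3 for NLS 2 copies against NLS 1 copy. Leaving out 1 library gave counts of 1 to 3 for NLS 2 copies against NLS 1 copy, 2 to 4 for the NLS 1 copy interaction, 2 to 5 for NLS 2 copies and 1 to 4 for Mito 2 copies at 29 °C. Of 2304 gene calls with a library left out, 2211 were the same. The cause of these changes was not tested.

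Libraries with the same replicate number were not treated as paired. In 0 of 21 pairs of groups were all 3 correlations of their deviations over 0.1. A weaker pairing could be missed by this rule. With the replicate block 37 of 37 counts stayed within 1.5 times, and 218 of 222 gene calls were the same. Gained were Nc73EF in Mito 2 copies at 29 °C (adjusted p = 0.042), Nc73EF from 18 to 29 °C in Mito 1 copy (0.0441) and the Idh interaction in NLS 1 copy (0.0447), and Mdh1 in NLS 2 copies against NLS 1 copy was lost (0.0508). The read depth is unknown, so counting error cannot be separated from the spread between libraries.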

Other observations

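Genes that feed or drain the cycle were higher than in w1118 as well, averaged over temperatures: 11 of 17 in Cyto, 11 in NLS 1 copy, 13 in NLS 2 copies, 12 in Mito 1 copy and 14 in Mito 2 copies, against the background shares given for the same comparisons. The lower ones were Got2, mitochondrial aspartate aminotransferase, in NLS 1 copy (log2 -0.080) and Pdp, the phosphatase of pyruvate dehydrogenase, in NLS 2 copies (-0.13). The medians were 0.24, 0.20, 0.23, 0.13 and 0.17. Pdk, the kinase that inhibits pyruvate dehydrogenase, was higher by 0.66 in Cyto, 0.65 in NLS 1 copy, 0.52 in NLS 2 copies, 0.53 in Mito 1 copy and 0.45 in Mito 2 copies. PCB, pyruvate carboxylase, which makes oxaloacetate from pyruvate, was higher by 0.42, 0.43, 0.32, 0.33 and 0.12 in the same order. Cytosolic aspartate aminotransferase Got1, the partner of Mdh1 in the malate-aspartate shuttle, was higher by 0.41, 0.35, 0.57, 0.31 and 0.59. Irp-1B, a relative of cytosolic aconitase, was at 0.66, 0.46, 0.29 and 0.18 in the first 4 strains and did not pass in Mito 2 copies (0.009).

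From 18 to 29 °C PCB did not pass in w1118 (log2 0.013) and rose in the 5 transgene strains, by 0.69 in Cyto, 0.43 in NLS 1 copy, 0.68 in NLS 2 copies, 0.69 in Mito 1 copy and 0.22 in Mito 2 copies. Its interaction was upward in 4 of 5 strains and did not pass in Mito 2 copies (log2 0.21). PCB was followed across temperature after its values were seen. In the 5 transgene strains its change had the opposite sign to that of Acon and Nc73EF, though Nc73EF did not pass in Mito 1 copy. In w1118 none of these genes passed.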
